A study of Mus musculus with 2 samples.

Results

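The 8 genes described here encode parts of the red cell membrane and proteins made late in red cell maturation: Sptb, Ank1, Epb41, Epb42, Slc4a1, Bpgm, Tent5c and Ube2l6. They were taken by gene symbol from 55536 annotated mouse genes, and all 8 were found in the gene and transcript tables. They had been picked with their values in these libraries known, so their levels and ratios are given as descriptions, without a test. Total RNA was sequenced from 2 heart samples of female mice of the strain B6CASTF1/J at 4 days of age. These samples, called hearts below, form a single group as biological replicates 1 and 2. The labels give the hearts separate tissue samples but the same donor code, name no treatment or transgene, and so describe no contrast beyond that of heart against heart. Expected counts, which are estimated read counts that need not be whole, totalled 36175363 in replicate 1 and 32509660 in replicate 2. All 12 cardiomyocyte markers were present in both hearts, with a summed level of 38933 TPM in replicate 1 and 39366 TPM in replicate 2 (TPM is a level corrected for transcript length and library size).

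The red cell membrane is held up by a mesh of spectrin tetramers. Ankyrin ties the mesh to band 3, the anion exchanger that spans the bilayer, with protein 4.2 bound at the same place, and protein 4.1 joins spectrin ends to short actin filaments. Red cell precursors raise these proteins together with the globins and the heme enzymes, and the enucleated reticulocyte carries the leftover messenger RNA into the blood. Several of the genes also work in striated muscle, where a short form of ankyrin 1 sits in the sarcoplasmic reticulum and anchors it to the contractile apparatus through obscurin. A whole heart can thus hold transcripts of both kinds, from its own cells and from the blood inside it. In bulk tissue fewer cells of a type and less RNA per cell cannot be told apart.

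A few stretches of coding sequence separate forms of the genes to which the results return. They were read from the GENCODE M21 transcripts on the mm10 genome and are printed 5′ to 3′ on the strand of the gene. The first pair is the coding exon at which the forms of Sptb part (minus strand). In Sptb-201 it has 76 nt (chr12:76597726-76597801) and splices on to 4 further coding exons that hold 642 nt. In Sptb-202 the same exon runs on past that splice site, and its coding part is 142 nt (chr12:76597660-76597801), where the reading frame ends. The 66 coding nt that the Sptb-201 exon lacks are in capitals, and the noncoding rest of the exon is not printed.
Sptb-201 exon: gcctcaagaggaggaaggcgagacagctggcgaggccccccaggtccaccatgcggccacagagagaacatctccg
Sptb-202 exon, coding part: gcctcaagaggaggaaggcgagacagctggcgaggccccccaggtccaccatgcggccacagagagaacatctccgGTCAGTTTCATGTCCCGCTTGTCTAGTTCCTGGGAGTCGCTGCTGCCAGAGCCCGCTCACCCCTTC
The last is the 63-nt exon of Epb41 (chr4:131962924-131962986, minus strand, 21 codons), in capitals between 15 nt of its neighbouring exons. It encodes part of the spectrin-actin binding domain and is known in mouse and human red cell precursors as an exon joined into the message late in maturation.
Epb41 exon: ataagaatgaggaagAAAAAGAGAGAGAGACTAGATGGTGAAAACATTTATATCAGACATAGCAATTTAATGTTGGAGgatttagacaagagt

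The 8 genes fell along a gradient between the hearts. Sptb and Ank1 stood at nearly the same level in both, Epb41 and Bpgm were between 2 and 3 times higher in replicate 1, Ube2l6 was 4.82-fold higher, Slc4a1 11.1-fold and Tent5c 17.6-fold. Epb42 lay in between with few reads. Ratios are those of expected counts rounded to whole numbers and scaled by TMM, replicate 1 over replicate 2, with an exact 95% counting interval that covers counting error only. A gene was called when its ratio was at least 2-fold, its mean TPM at least 1, its summed count at least 20 and its interval left out equality. By that rule 5 of the 7 members that passed the filter were called higher in replicate 1 and 0 were called lower, beside 0.537% of 13598 genes called higher and 0.324% called lower. Because the genes were chosen on this contrast, nothing is read from that count. The median log2 ratio over the 8 genes was 1.85, and 1.43 over the 7 that passed, beside 0.00 over all 13598 genes.

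**Figure D1:**
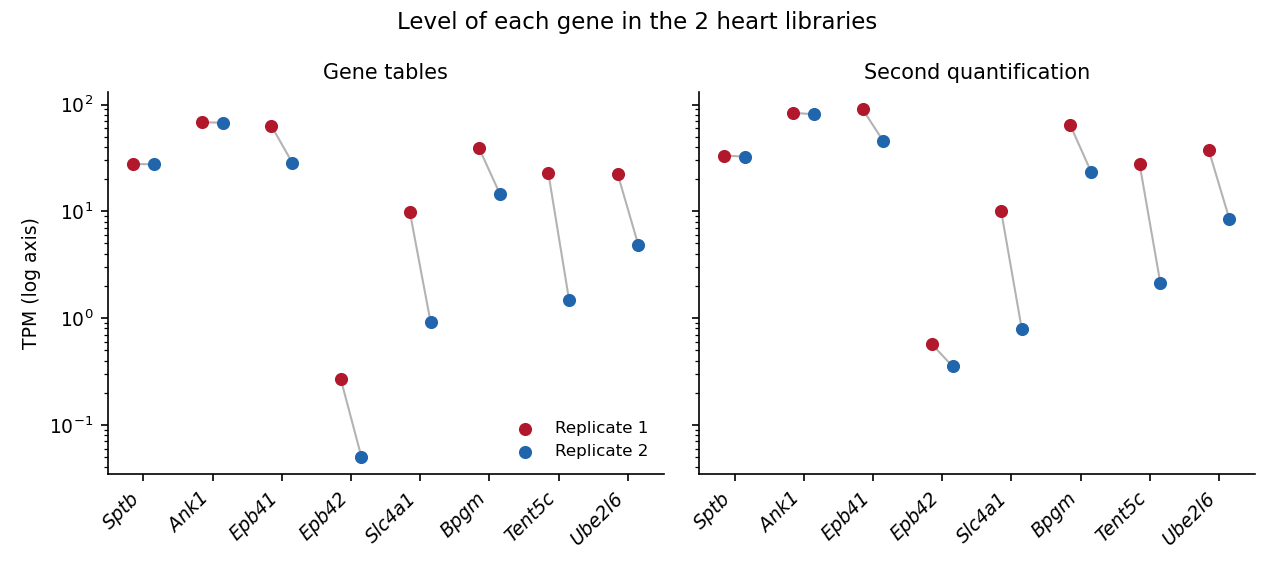
Level of each gene in TPM (log axis) in replicate 1 (red) and replicate 2 (blue), in the gene tables at left and in the second quantification at right, with a grey line joining the 2 hearts. Sptb and Ank1 are level between the hearts, and the steepest line is that of Tent5c, at 22.93 TPM in replicate 1 and 1.48 TPM in replicate 2 in the gene tables.

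Among the skeleton proteins, Sptb (ENSMUSG00000021061.15; chromosome 12, 76580488 to 76710547, minus strand), which encodes the erythroid beta chain of spectrin, was covered by 7784 counts in replicate 1 and 6716 in replicate 2. Its level was 27.76 TPM in replicate 1 and 27.57 TPM in replicate 2 (mean 27.7 ± 0.134, SD, n = 2), with a log2 ratio of 0.10 (0.06 to 0.15). Its sign was not fixed by the scaling, since scaling to the spike-in RNAs gave -0.03. Ank1 (ENSMUSG00000031543.18; chromosome 8, 22974844 to 23150497, plus strand), which encodes ankyrin 1, was covered by 3764 counts in replicate 1 and 3202 in replicate 2. Its level was 68.23 TPM in replicate 1 and 67.58 TPM in replicate 2 (mean 67.9 ± 0.460, SD, n = 2), with a log2 ratio of 0.12 (0.06 to 0.19) that spike-in scaling placed at -0.01. Together these genes summed to 96.0 TPM in replicate 1 and 95.2 TPM in replicate 2, so that the sum hardly differed between the hearts.

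Epb41 (ENSMUSG00000028906.16; chromosome 4, 131923413 to 132075321, minus strand), the gene of protein 4.1, stood apart from both. Its counts were 5920 in replicate 1 and 2452 in replicate 2, and its level was 62.9 TPM in replicate 1 and 28.57 TPM in replicate 2. The log2 ratio was 1.16 (1.09 to 1.23), and the interval did not meet that of Ank1, the next gene below it. Its difference of 34.3 TPM was the largest of the 8 genes in absolute level.

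The membrane components were scarcer. Slc4a1 (ENSMUSG00000006574.15; chromosome 11, 102348824 to 102366203, minus strand), the gene of band 3, was covered by 747 counts in replicate 1 and 62 in replicate 2, a level of 9.79 TPM in replicate 1 and 0.91 TPM in replicate 2. Its log2 ratio was 3.47 (3.11 to 3.88). Epb42 (ENSMUSG00000023216.13; chromosome 2, 121017891 to 121037072, minus strand), the gene of protein 4.2, a relative of the transglutaminases without their enzyme activity, was covered by 29 counts in replicate 1 and 3 in replicate 2. At 0.27 TPM in replicate 1 and 0.05 TPM in replicate 2 it missed the filter on mean TPM, and its 7.81-fold ratio had an interval of 2.78 to 46.0. Its place between Ube2l6 and Slc4a1 is therefore not settled, as its interval overlapped both of theirs.

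Of the soluble proteins, Bpgm (ENSMUSG00000038871.5; chromosome 6, 34476207 to 34505613, plus strand) encodes the enzyme that makes 2,3-bisphosphoglycerate, which lowers the oxygen affinity of hemoglobin. It was covered by 1616 counts in replicate 1 and 556 in replicate 2, a level of 39.0 TPM in replicate 1 and 14.58 TPM in replicate 2, and a log2 ratio of 1.43 (1.29 to 1.57). Tent5c (ENSMUSG00000044468.14; chromosome 3, 100451628 to 100489324, minus strand), a noncanonical poly(A) polymerase that lengthens messenger RNA tails, was covered by 3552 counts in replicate 1 and 187 in replicate 2. Its level was 22.93 TPM in replicate 1 and 1.48 TPM in replicate 2, the widest ratio of the 8 genes with a log2 value of 4.13 (3.93 to 4.36). Ube2l6 (ENSMUSG00000027078.14; chromosome 2, 84798828 to 84810335, plus strand), the conjugating enzyme that transfers the ubiquitin-like protein ISG15, was covered by 907 counts in replicate 1 and 174 in replicate 2. Its level was 22.61 TPM in replicate 1 and 4.85 TPM in replicate 2, with a log2 ratio of 2.27 (2.04 to 2.52).

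Ordered by ratio in the gene tables, the genes ran Sptb, Ank1, Epb41, Bpgm, Ube2l6, Epb42, Slc4a1 and Tent5c. The intervals of Sptb and Ank1 overlapped, as did those of Epb42 with each neighbour. The other 4 neighbouring pairs were apart in those tables. The places of the genes among the 13828 genes with a mean TPM of at least 1 over both hearts moved accordingly. Epb42 was not in this set. Ank1 stood at percentile 91.0 of level in replicate 1 and 90.5 in replicate 2, while Tent5c stood at percentile 72.3 in replicate 1 and 6.20 in replicate 2. Epb41 was at percentile 90.2 in replicate 1 and 76.4 in replicate 2, and Slc4a1 at 47.4 in replicate 1 and 0.839 in replicate 2. At 0.91 TPM in replicate 2, Slc4a1 passed that filter through replicate 1. Most genes below it in replicate 2 were left out by the filter, which thus sets its low percentile there. The summed level of the 8 genes was 253 TPM in replicate 1 and 146 TPM in replicate 2 (mean 200 ± 76.3, SD, n = 2), and without Sptb and Ank1 it was 158 TPM in replicate 1 and 50.4 TPM in replicate 2. Epb41, Bpgm, Tent5c and Ube2l6 each added between 17.8 and 34.3 TPM to that difference.

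**Figure D2:**
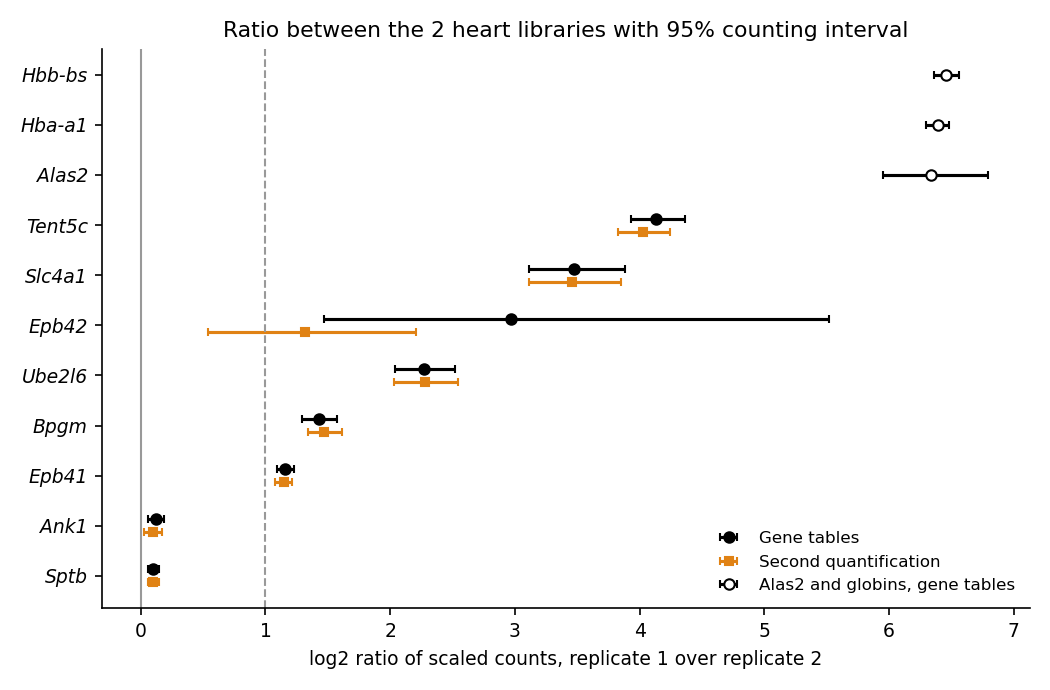
log2 ratio of scaled counts, replicate 1 over replicate 2, with exact 95% counting intervals, for the 8 genes in the gene tables (black) and the second quantification (orange) and for Alas2 and a pair of globin genes (open circles); the solid line marks equality and the dashed line 2-fold. Sptb and Ank1 lie at 0.10 and 0.12, Tent5c at 4.13, and Alas2 and the globins above 6.

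The second quantification, made by the authors from the same libraries and holding its own counts and TPM per transcript, gave the same 5 calls, beside 0.609% of 14442 genes called higher and 0.415% called lower. Spike-in scaling also gave them, beside 0.441% of 13598 genes called higher and 0.5% lower. In the second quantification the log2 ratios were 0.10 for Sptb, 0.10 for Ank1, 1.15 for Epb41, 1.47 for Bpgm, 2.28 for Ube2l6, 3.46 for Slc4a1 and 4.03 for Tent5c. Epb42 was the exception, with 48.8 counts in replicate 1 and 18.5 in replicate 2 and a log2 ratio of 1.32 (0.54 to 2.21). The order changed with it, as Epb42 then fell between Epb41 and Bpgm. In the second quantification the intervals of Slc4a1 (3.11 to 3.85) and Tent5c (3.83 to 4.24) also overlapped. With no filter on mean TPM, Epb42 joined the called genes, beside 1.23% of 16958 genes called higher and 0.879% lower. Epb42, Slc4a1, Bpgm, Tent5c and Ube2l6 overlap no other annotated gene, and the posterior SD of the gene count was 0 for all 8 genes, so that the gene tables record no reads shared with other genes.

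A transcript table of the same layout as the gene table and the second quantification show which forms of the skeleton genes the hearts carried. Values are those of the first unless the second is named. Most of the Ank1 level came from the small form. Ank1-208, with 155 codons in 5 exons, had 2414 counts in replicate 1 and 2096 in replicate 2, a level of 52.40 TPM in replicate 1 and 52.02 TPM in replicate 2. That was 76.8% of the level of the gene in replicate 1 and 77.0% in replicate 2. A second small form, Ank1-201 with 156 codons, had 7.97 TPM in replicate 1 and 6.15 TPM in replicate 2. Both start far into the gene, Ank1-208 at 80.7 kb downstream of the start of Ank1-207.

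The full-length ankyrins were a minor share. The 11 transcripts that code for over 1000 codons summed to 4.92 TPM in replicate 1 and 4.70 TPM in replicate 2, or 7.21% of Ank1 in replicate 1 and 6.95% in replicate 2. Because those transcripts are long, this share rests on 1108 counts in replicate 1 and 925 in replicate 2, with a log2 ratio of 0.15 (0.02 to 0.28). The 3 coding transcripts from the downstream start had a log2 ratio of 0.12 (0.03 to 0.20). The large forms thus did not separate from the small ones between the hearts, and their 95% intervals overlapped. These sums over transcripts were chosen after their values were seen.

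**Figure D3:**
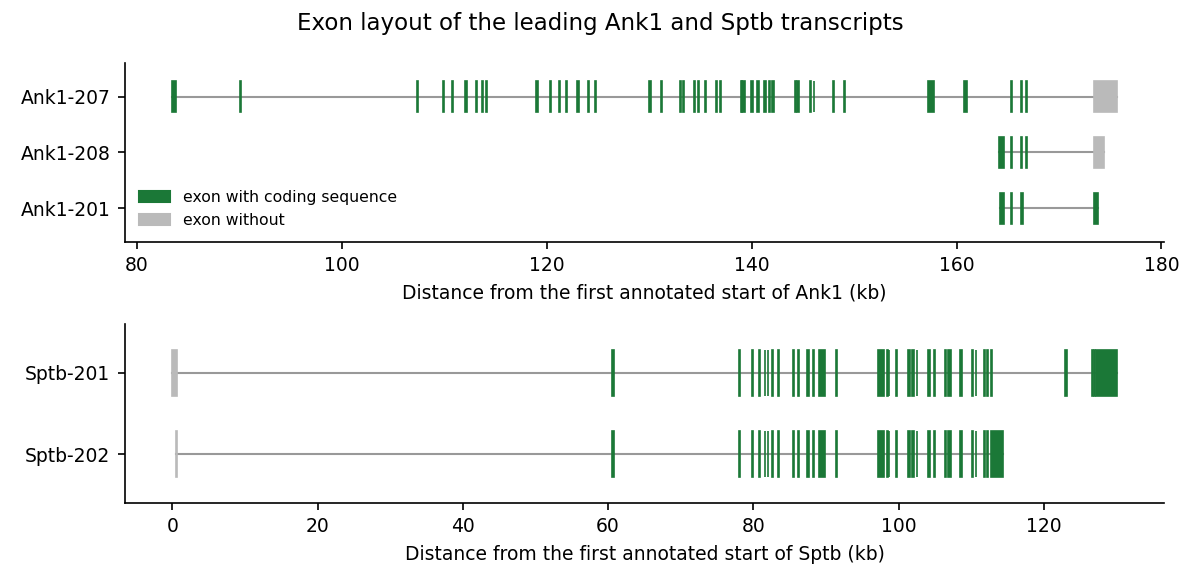
Exons of Ank1-207, Ank1-208 and Ank1-201 and of Sptb-201 and Sptb-202, by distance in kb from the first annotated start of each gene in the direction of transcription; exons that hold coding sequence are green and the others grey. The small Ank1 forms lie at the downstream end, and Sptb-201 runs 15.6 kb past the end of Sptb-202.

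Sptb had the reverse layout, with a common beginning and alternative ends. Sptb-201, with 2329 codons and the longer end, had 7148 counts in replicate 1 and 6223 in replicate 2, or 24.73 TPM in replicate 1 and 24.62 TPM in replicate 2. It made up 89.1% of Sptb in replicate 1 and 89.3% in replicate 2. Sptb-202, with 2137 codons and the shorter end, had 634 counts in replicate 1 and 488 in replicate 2, with posterior SDs of 55.7 counts in replicate 1 and 53.2 in replicate 2. The transcripts share 28 coding exons, out of 35 in Sptb-201 and 31 in Sptb-202. In muscle and brain the beta chain is known to carry the longer end and in red cells the shorter one. The log2 ratio of Sptb-201 was 0.09 (0.04 to 0.14) in the first table and 0.08 (0.03 to 0.13) in the second. That of Sptb-202 was 0.27 (0.10 to 0.44) in the first and 0.34 (0.19 to 0.50) in the second. The intervals overlapped in the first table and were apart in the second, and they do not cover the uncertainty of assigning reads to transcripts.

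For Epb41 the assignment to transcripts was unsettled. Of its 19 annotated transcripts, Epb41-215 had 1860 counts in replicate 1 and 798 in replicate 2 in the first table and 0 in both hearts in the second. Epb41-203 had 0 counts in both hearts in the first table, against 2814 in replicate 1 and 880 in replicate 2 in the second. Epb41-212, which holds the 63-nt exon printed above, was found by both, with 1760 counts in replicate 1 and 435 in replicate 2 in the first table, and 1460 in replicate 1 and 260 in replicate 2 in the second.

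Summed over transcripts, the forms of Epb41 with the 63-nt exon differed more between the hearts than those that skip it. The 9 transcripts with the exon had 29.7 TPM in replicate 1 and 10.3 TPM in replicate 2, with a log2 ratio of 1.58 (1.48 to 1.69). The 6 that span the place without it had 18.5 TPM in replicate 1 and 11.2 TPM in replicate 2, with a log2 ratio of 0.80 (0.71 to 0.90). In the second quantification the same sums had log2 ratios of 1.32 (1.22 to 1.43) with the exon and 1.11 (1.03 to 1.20) without. The order was the same in both tables, while its size was not, and the tables hold no junction reads from which to count the exon directly. This split was chosen after the values of the transcripts were seen, and the cells from which the forms with the exon came were not tested.

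**Figure D4:**
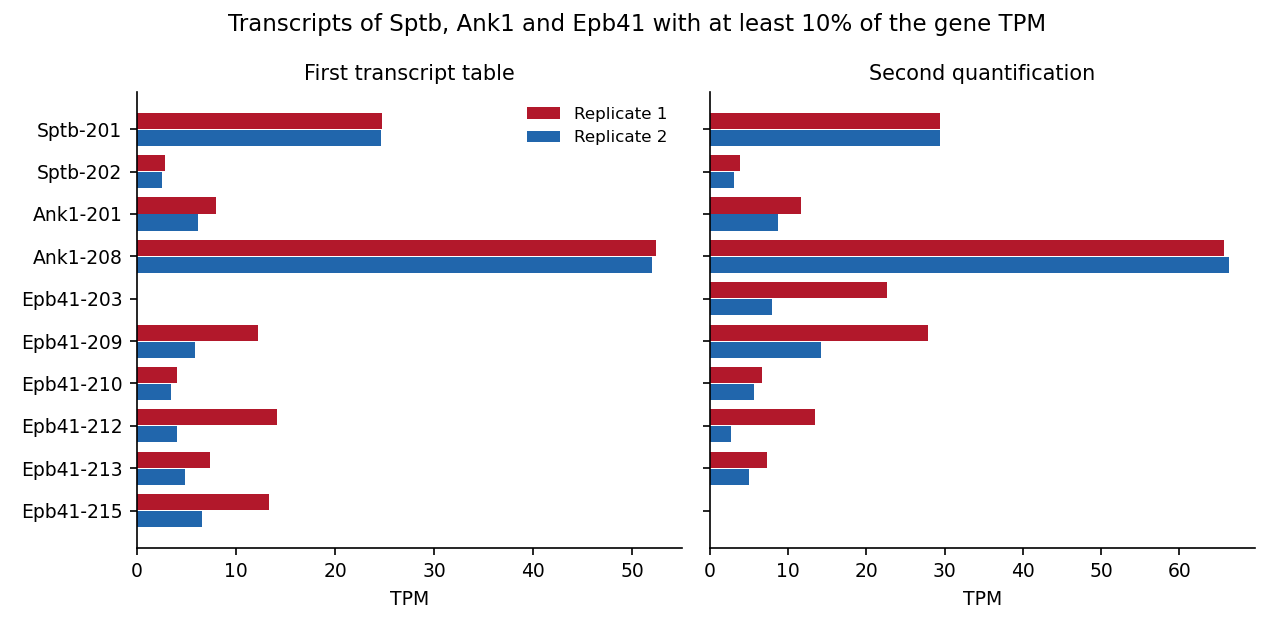
TPM in replicate 1 (red) and replicate 2 (blue) of the transcripts of Sptb, Ank1 and Epb41 that hold at least 10% of the gene in either heart in either table, in the first transcript table at left and in the second quantification at right. Ank1-208 and Sptb-201 lead their genes with bars of like length in both hearts, and Epb41-203 and Epb41-215 each appear in a single table.

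By count, Tent5c, Slc4a1, Bpgm and Ube2l6 were each carried mostly by their main coding transcript, while shares of the level in TPM were less clear. Tent5c-201 held 3551 counts in replicate 1 and 186 in replicate 2, all but about 1 count of the gene in each heart. Slc4a1-201, the only coding form of Slc4a1, held 718 counts in replicate 1 and 60 in replicate 2, with a log2 ratio of 3.46 (3.09 to 3.88). Its share of the level was 58.7% in replicate 1 and 60.4% in replicate 2, because a few counts on short noncoding transcripts weigh heavily in TPM. The level of Slc4a1 in TPM is therefore less certain than its count. Bpgm-201 held 1385 counts in replicate 1 and 482 in replicate 2. Bpgm-205, a shorter coding form of 596 nt, held 213 counts in replicate 1 and 61 in replicate 2. At that length they made up 39.1% of the level of Bpgm in replicate 1 and 34.5% in replicate 2. Ube2l6-201 held 851 counts in replicate 1 and 174 in replicate 2. The first table listed 0 counts in both hearts for Ube2l6-204, which retains an intron, whereas the second gave it 73 in replicate 1 and 16 in replicate 2. At its length of 525 nt these made up 39.5% of the level of Ube2l6 in replicate 1 and 43.3% in replicate 2. Epb42 had too few reads for its forms to be told apart. Epb42-202, its longest coding form, had 26 counts in replicate 1 and 0 in replicate 2 in the first table, where the 3 counts of replicate 2 went to the noncoding Epb42-203.

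The other proteins of the red cell membrane did not share the gradient at the level of the calls. Of 22 listed partners, 16 passed the filter, 0 were called in either direction, and their median log2 ratio was 0.05 beside 0.00 for all genes. Their summed level was 435 TPM in replicate 1 and 436 TPM in replicate 2. The list was led by genes that the heart expresses broadly: Tmod1, which caps the slow ends of actin filaments, at 123.2 TPM in replicate 1 and 120.63 TPM in replicate 2; Add1, an adducin of the spectrin-actin junction, at 89.33 TPM in replicate 1 and 93.72 TPM in replicate 2; the nucleoside transporter gene Slc29a1 at 42.65 TPM in replicate 1 and 43.85 TPM in replicate 2; and the water channel gene Aqp1 at 38.76 TPM in replicate 1 and 37.17 TPM in replicate 2. Partners with low counts, named after their values were seen, showed other values. Trim10, listed though not a membrane protein, had 48 counts in replicate 1 and 4 in replicate 2 (log2 ratio 3.32, 2.03 to 5.41). It was among the 2 listed genes called higher when the filter on mean TPM was dropped, beside 1.23% of 16958 genes. The second quantification called 1 of 18 partners higher in replicate 1, beside 0.609% of 14442 genes. Rhag, of the Rh complex, had 13 counts in replicate 1 and 1 in replicate 2, too few for a call.

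As a set, the relatives of the 8 genes that serve other tissues stood nearly level, though single genes such as Tent5a differed by less than 2-fold. Of 23 such genes 19 passed the filter, 0 were called in either direction, and their median log2 ratio was 0.05. Sptbn1, the widely expressed beta spectrin, had 257.62 TPM in replicate 1 and 270.16 TPM in replicate 2. Ank2, the ankyrin of the heart membrane, had 101.8 TPM in replicate 1 and 98.69 TPM in replicate 2, and the anion exchanger gene Slc4a3 had 53.68 TPM in replicate 1 and 55.37 TPM in replicate 2. Thus Slc4a1 was the scarcer of these exchanger genes in both hearts on the TPM scale. Ube2l3, the close relative of Ube2l6, had 68.24 TPM in replicate 1 and 69.50 TPM in replicate 2, and Tent5a, a relative of Tent5c, had 11.62 TPM in replicate 1 and 8.74 TPM in replicate 2 (log2 ratio 0.49, 0.38 to 0.60).

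The globin genes and Alas2 differed more between the hearts than any of the 8. The 4 adult globin genes found were all called higher in replicate 1, beside 0.537% of 13598 genes. They summed to 17172 TPM in replicate 1 and 219 TPM in replicate 2, so that replicate 2 held 1.28% of the level in replicate 1. Alas2, the erythroid enzyme that opens heme synthesis, stood in replicate 2 at 1.08% of its level in replicate 1. By the same measure Tent5c stood at 6.45%, Slc4a1 at 9.30%, Ube2l6 at 21.5%, Bpgm at 37.4%, Epb41 at 45.4% and Sptb at 99.3%. Of the embryonic globin genes, Hba-x had 4 counts in replicate 1 and 0 in replicate 2, and Hbb-y had 5 in replicate 1 and 0 in replicate 2. Hbb-bh1, Hbb-bh2 and Hbb-bh0 had 0 counts in both hearts, which allows up to 3 counts in each, although the second quantification gave Hbb-bh1 0.428 TPM in replicate 1 and 0 in replicate 2.

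Of 15 heme and iron genes, 14 passed and 2 were called higher in replicate 1, beside 0.537% of 13598 genes. These were Alas2 and Slc25a37, the mitochondrial iron importer mitoferrin 1, at 19.47 TPM in replicate 1 and 4.63 TPM in replicate 2. Fech, which puts iron into heme, had 70.95 TPM in replicate 1 and 44.80 TPM in replicate 2 and was not called, with a log2 ratio of 0.68 (0.60 to 0.76). Of 24 genes of late red cell maturation, 18 passed and 2 were called higher, beside the same 0.537%. Among the called genes, the ubiquitin ligase gene Mkrn1, named after its values were seen, had 1629 counts in replicate 1 and 618 in replicate 2. The median log2 ratio of the 18 was 0.15, beside 0.00 for all genes. The erythroid transcription factors were nearly absent or level: Klf1 had 4 counts in replicate 1 and 0 in replicate 2, Gata1 had 2 in replicate 1 and 1 in replicate 2, Gfi1b had 0 in both, and 0 of the 5 that passed were called.

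Because Ube2l6 is also induced by interferon, its companions were read beside it. Of 15 listed interferon and ISG15 pathway genes, 9 passed and 1 was called higher in replicate 1, beside 0.537% of 13598 genes. The median log2 ratio of the 9 was 0.00. Isg15 itself, named after its value was seen, had 11 counts in replicate 1 and 10 in replicate 2, and the ISG15-activating enzyme gene Uba7 had 6.02 TPM in replicate 1 and 7.91 TPM in replicate 2. The called gene was Rsad2, the antiviral enzyme viperin, with 375 counts in replicate 1 and 44 in replicate 2. Outside the list Isg20, named after its values were seen, was also called, with 67 counts in replicate 1 and 10 in replicate 2. The part of interferon in the ratio of Ube2l6 was not tested.

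**Figure D5:**
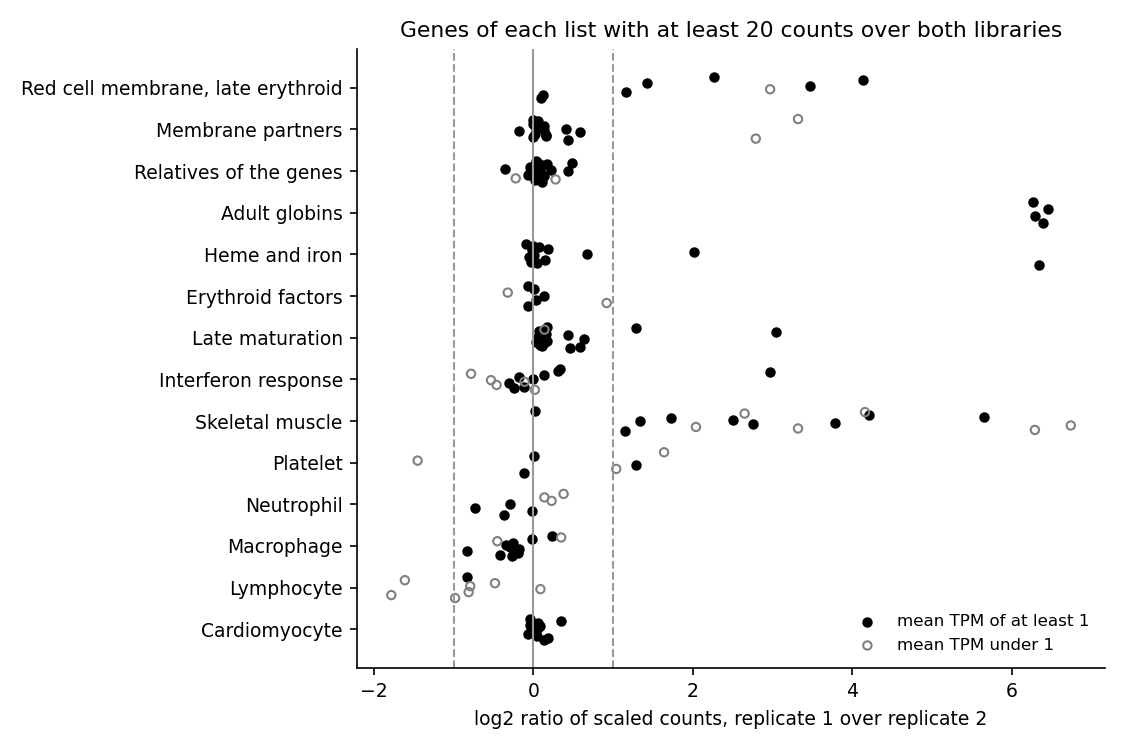
log2 ratio of scaled counts, replicate 1 over replicate 2, of each gene with at least 20 counts over both hearts, for the 8 genes and the gene lists (embryonic globins had too few counts); filled points have a mean TPM of at least 1, open points less, and dashed lines mark 2-fold in either direction. Membrane partners with filled points and the relatives of the 8 genes lie around 0, adult globins lie above 6, and skeletal muscle genes also lie to the right.

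Markers of another tissue were also mostly higher in replicate 1. Of 19 skeletal muscle genes 9 passed the filter and 8 were called higher in replicate 1, beside 0.537% of 13598 genes. The second quantification called 10 of 11 higher, beside 0.609% of 14442 genes. With no filter on mean TPM 14 of 15 were called higher, beside 1.23% of 16958 genes. The median log2 ratio of the 9 that passed was 2.51. The summed level of the 19 genes was 353 TPM in replicate 1 and 154 TPM in replicate 2. Acta1, the skeletal actin that the heart also expresses, led them with 263.09 TPM in replicate 1 and 125.14 TPM in replicate 2, followed by Myl1 with 33.33 TPM in replicate 1 and 14.13 TPM in replicate 2. The muscle-type forms Ank1-208 and Sptb-201 were level between the same hearts, but heart and skeletal muscle cannot be told apart as their source. The part of skeletal muscle RNA in the values of the 8 genes was not tested.

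Summed markers of other blood cells were not higher in replicate 1. The summed level of 12 neutrophil genes was 15.8 TPM in replicate 1 and 20.4 TPM in replicate 2, with Elane at 0 counts in both, and 0 of the 4 that passed were called in either direction. Macrophage genes summed to 51.7 TPM in replicate 1 and 69.7 TPM in replicate 2, with 0 of 10 called in either direction. Lymphocyte genes summed to 4.04 TPM in replicate 1 and 7.25 TPM in replicate 2, with Nkg7 at 0 counts in both and 0 called of the 1 gene that passed. The second quantification called 1 of 2 lower in replicate 1, Lck, beside 0.415% of 14442 genes. With no filter on mean TPM 2 of 8 were called lower, beside 0.879% of 16958 genes. These were Lck with 11 counts in replicate 1 and 32 in replicate 2 and Cd8a with 5 in replicate 1 and 17 in replicate 2. Of 12 platelet genes 3 passed and 1 was called higher in replicate 1, beside 0.537% of 13598 genes. It was Itga2b, with 88 counts in replicate 1 and 33 in replicate 2, while Pf4 had 126 counts in each heart. The second quantification called 2 of 4 higher, Itga2b and Ppbp, beside 0.609% of 14442 genes. With no filter on mean TPM 3 were called higher, these and Tubb1, beside 1.23% of 16958 genes. Under that rule 1 was called lower, Gp1bb, beside 0.879%. The summed level of the platelet genes was 18.2 TPM in replicate 1 and 18.8 TPM in replicate 2, of which Pf4 made up 9.59 TPM in replicate 1 and 12.55 TPM in replicate 2. Ppbp, Tubb1, Gp1bb, Lck and Cd8a are named after their values were seen.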

How the data were processed

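Per the labels, stranded libraries were made after depletion of ribosomal RNA, from 300 ng of total RNA each, and included ERCC spike-in RNAs. Per the file headers and notes, the authors deposited a gene table and 2 transcript tables for each library, on mm10 with GENCODE M21. Expected counts (estimated counts) and TPM, with posterior SDs of the counts, are the values deposited by the authors. The percent of its gene that each transcript holds was also deposited by the authors, in the first transcript table only. The percent values printed here were instead calculated, for both transcript tables, from the TPM deposited by the authors. Each is the TPM of the transcript over the summed TPM of all transcripts of its gene. The layouts are those of RSEM and, for the second quantification, of kallisto; the sources used here name no program or version.

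All 55536 genes matched the annotation, which gave symbols and 1-based coordinates. Transcript values of the second quantification were added up by gene. Rounded expected counts were scaled by TMM over all genes with edgeR 4.0.16 under R 4.3.3, with 0.5 added as a prior count. The exact intervals (Clopper-Pearson, 95%) and the limit of 3 counts for a count of 0 (0.0829 CPM for replicate 1, 0.0923 CPM for replicate 2) describe counting error alone, as the sources record no molecular identifiers. With 2 libraries of 1 group no p-value was computed. The labels share a donor code, and only their replicate numbers and tissue samples point to separate animals. The call rule was tested on simulated data. The 8 genes and the 14 lists (198 genes) were chosen with earlier results of these data known. Named are the 8 genes, up to 4 genes per list by mean TPM, list genes at 0 counts, relatives of the 8 genes, and the 10 called protein-coding genes outside the 8 that lie nearest the median ratio; any further gene was picked once its values had been seen. Single values of a few list genes and a sequence are not reported here. Alternatives were the second quantification, DESeq2 1.42.0 size factors, library totals, spike-ins, TPM ratios, posterior mean counts, other filters, folds and prior counts, and each library alone. The software was Python 3.11.15, numpy 2.4.6, pandas 2.3.3, scipy 1.17.1 and, for figures, matplotlib 3.10.9.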

Additional observations from a re-analysis of the deposited data

How the results depend on the processing

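The log2 ratio of every called gene kept its sign under the second quantification, DESeq2 size factors, library totals, spike-ins, TPM ratios, posterior mean counts and a prior count of 2. The 5 calls stood under each of these and under the other filters on mean TPM. At a ratio of at least 4-fold, 3 genes were called, Slc4a1, Tent5c and Ube2l6, since that rule asks for more. Beside them, 33 of all 13598 genes tested were called higher. The median over the 8 genes ranged from 1.40 in the second quantification to 1.86 with DESeq2, and leaving out Epb42, an alternative added after seeing the data, gave 1.43. Over all 13598 genes tested, 73 were called higher and 44 lower, against 208 and 149 of 16958 with no filter on mean TPM. With the filter at a TPM of 5, 25 and 11 of 9824 were called, and at 4-fold 33 and 15 of 13598. Posterior mean counts gave 26 lower. Of all calls, 62.4% were higher in replicate 1, against 46.9% with spike-in scaling, which called 60 higher and 68 lower and shifted the median of all genes to -0.13, and 51.6% with TPM ratios. The summed level of the 8 genes was 146 TPM without replicate 1 and 253 TPM without replicate 2. The mean TPM of Sptb (32.9), Ank1 (82.3) and Epb42 (0.461) and 19 of 24 transcript shares moved beyond the spread between the hearts in the second quantification. No paired analysis was possible because the hearts form a single group. A ratio cannot be recomputed without either heart. At 3 counts of Epb42 in replicate 2, depth limits its ratio.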

Other observations

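Leaving out the 8 genes themselves, the 10 called protein-coding genes with log2 ratios nearest to the median of the 8 genes (1.85) were a mixed set. Slc25a37 was the only one from the lists of heme and iron genes, at 2.01. Fat genes stood beside it: Plin1, which coats lipid droplets, had 198 counts in replicate 1 and 51 in replicate 2 (1.84), and Adipoq, the hormone adiponectin, had 81 in replicate 1 and 16 in replicate 2 (2.20). Tnni2, of fast skeletal muscle, was at 1.73 and Car3, abundant in fat and slow muscle, at 1.66. Mbp, the myelin basic protein gene, was at 1.38, as was Gm44502. Tspan10 was at 2.07, Ckmt1 at 1.44 and Gm49416 at 1.77. The second quantification called all of these but Gm49416 and Gm44502, whose posterior SDs were 48.2% and 30.6% of the count in replicate 1.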
